A study of Saccharomyces cerevisiae with 12 samples.

Results

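Intron-containing tRNA genes are a minority of the tRNA genes of budding yeast, and the SUMO peaks over them were taken from 6 deposited ChIP-seq peak lists. A peak was a member when its summit, the base of highest signal, lay within 250 bp of a nuclear tRNA gene annotated with 2 exons in the R64 assembly (sacCer3). Where several tRNA genes were in reach, the nearest took the summit. Of 3486 peaks in all lists, 345 met this rule, and they fell on 60 genes of 10 anticodon families. A further 1212 peaks lay at the 215 intronless tRNA genes. Each gene had at most 1 peak in a list, so genes and peaks are counted alike within a list.

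Chromatin had been immunoprecipitated with an antibody to Smt3, the yeast SUMO protein. The 3 groups were ubc9-6 cells (untreated; a mutant of the SUMO conjugase Ubc9 with lowered activity), W303a cells, called WT, shifted to 37 °C for 12 min (heat shock), and untreated WT cells. All cultures grew in SC medium at 30 °C, and each group had 2 replicates, each with its own input. The study's methods describe independent replicates prepared from cultures, and the labels say nothing further on this.

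Transfer RNA genes are read by RNA polymerase III from promoters inside the gene. The factor TFIIIC binds the A box and the B box in the transcribed sequence, and it places TFIIIB upstream of the start, where TFIIIB recruits the polymerase. In yeast a nuclear tRNA intron sits just after the base that follows the anticodon, between the A and B boxes, so that an intron moves the boxes apart; it is removed from the transcript by a dedicated endonuclease and ligase, without the spliceosome. SUMO is a small protein that the conjugase Ubc9 attaches to lysines of its targets, and subunits of the RNA polymerase III apparatus are among the known targets.

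The genes below show how an intron is placed, and were chosen as the WT gene with the highest fold enrichment in the families with the shortest intron, with the longest intron (also the family of lowest median) and with the highest median. Each is written in the direction of transcription from RefSeq R64, with 40 bases before and 12 bases after the gene. The capitals mark, in order, the A box, the anticodon and the B box, and the gene starts at base 41. They are SUP8 (locus tag YNCM0037W, tRNA-Tyr, intron of 14 bp, chrXIII:837888-838028, plus strand), YNCL0033C (tRNA-Ile, intron of 60 bp, chrXII:605288-605472, minus strand) and SUP61 (YNCC0013W, tRNA-Ser with anticodon CGA, intron of 19 bp, chrIII:227902-228054, plus strand).
SUP8: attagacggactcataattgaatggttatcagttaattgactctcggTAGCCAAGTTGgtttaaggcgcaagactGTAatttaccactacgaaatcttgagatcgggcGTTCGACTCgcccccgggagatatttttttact
YNCL0033C: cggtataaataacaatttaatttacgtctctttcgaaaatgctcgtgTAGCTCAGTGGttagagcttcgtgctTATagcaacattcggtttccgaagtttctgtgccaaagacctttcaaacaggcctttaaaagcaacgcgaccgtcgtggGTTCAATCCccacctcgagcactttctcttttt
SUP61: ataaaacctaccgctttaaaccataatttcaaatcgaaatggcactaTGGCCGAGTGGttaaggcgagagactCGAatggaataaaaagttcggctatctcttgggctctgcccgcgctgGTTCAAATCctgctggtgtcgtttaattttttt

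In these sequences the summit lay at bases 23 and 23 (lists labelled ubc9-6), 22 and 23 (labelled heat shock) and 28 and 28 (WT untreated) of SUP8, all upstream of the gene. In SUP61 it lay at bases 27 and 28, at 32 and 25, and at 43 and 28, with the groups in the same order. In YNCL0033C it lay at bases 48 and 48 in the lists labelled ubc9-6 and at 46 and 53 in WT untreated, all inside the gene. Base 46 lay just before the A box and the others in it. In the lists labelled heat shock, YNCL0033C had 1 peak only, in replicate 2, with its summit upstream, at base 29.

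The A box was searched by its conserved bases (the first T and G, a central A and the closing G, with any base between) and the B box as GTTCNANNC, both on the gene's strand. Both were present in 60 of 60 intron-containing genes, and the B box was found in 210 and the A box in 214 of 215 intronless genes. Of all 100 bp windows of the nuclear genome, 3.81% held the B box and 47.3% held the A box on either strand, so the A box letters alone are common. The introns were 14 to 60 bp long. The boxes lay 61 to 105 bp apart in intron-containing genes, against 43 to 72 bp in intronless genes. A run of 5 or more T, the terminator of RNA polymerase III, followed within 30 bp of the end of 59 of 60 intron-containing and 210 of 215 intronless genes. The 60 genes held 29 distinct gene sequences, spread over 14 chromosomes.

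Not all lists behaved as their labels say. Promoters of 36 heat-shock genes held a summit 13 and 17 times labelled ubc9-6 and 0 and 0 times labelled heat shock, against 7 and 4 times in WT untreated. Of 132 genes for ribosomal proteins, 119 and 121 had a summit labelled ubc9-6 and 5 and 23 labelled heat shock, against 123 and 123 in WT untreated. In the names of the deposited lists, those labelled ubc9-6 carry an h where WT untreated has an n, and those labelled heat shock carry an m where WT untreated has a w. No source used here explains these letters. The labels ubc9-6 and heat shock may be exchanged, and the names below are those of the labels only. The lists held 600 and 709 peaks (labelled ubc9-6), 302 and 319 peaks (labelled heat shock) and 714 and 842 peaks (WT untreated). Peaks at intron-containing tRNA genes made up 9.67% and 8.18%, 17.2% and 18.2%, and 8.26% and 7.13% of them, with the groups in the same order.

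Nearly every intron-containing tRNA gene carried SUMO in each list. Peaks were found at 58 and 58 of the 60 genes (lists labelled ubc9-6), at 52 and 58 (labelled heat shock) and at 59 and 60 in WT untreated. Both lists of a group held a peak at 58, 52 and 59 genes. Over all 275 nuclear tRNA genes the share with a peak in both lists was 94.2% (labelled ubc9-6), 89.5% (labelled heat shock) and 95.6% (WT untreated), so that the shares of the intron-containing genes stood close to those of all tRNA genes. Peaks were found in all 6 lists at 52 genes.

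The 8 genes without a peak in every list differed in kind. YNCG0040C (tRNA-Leu, CAA; chrVII:857378-857491, minus strand) had no peak in either list labelled heat shock, and its fold enrichment was the lowest of its family elsewhere, at 3.39 and 4.32 in the lists labelled ubc9-6, against 4.79 and 6.43 in WT untreated. YNCG0008W (tRNA-Leu, CAA), YNCL0033C (tRNA-Ile), YNCL0039W (tRNA-Ser, GCU), SUP3 (YNCO0010W, tRNA-Tyr) and YNCO0016W (tRNA-Lys) lacked a peak in replicate 1 labelled heat shock only. In replicate 2 labelled heat shock their fold enrichments were 1.67, 2.43, 2.33, 2.07 and 1.98, in that order. These 5 values were the lowest of all intron-containing genes in that list, so the genes missing from one replicate were the weakest in the other.

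YNCD0023C (tRNA-Phe; chrIV:1095370-1095461, minus strand) was the reverse case, with a peak in WT untreated only. Its fold enrichments there, 3.11 and 4.22, were the lowest of any intron-containing gene in both lists, and its summits lay 93 and 115 bp from the 5′ end, past the end of the gene, unlike those of every other member. YNCG0029C (tRNA-Lys; chrVII:700953-701048, minus strand) had its own summit in replicate 2 labelled heat shock, at 6.21-fold, and in WT untreated replicate 2, at 10.4-fold. In the other 4 lists a single wide peak covered the gene, with its summit 269 to 290 bp away at the neighbouring tRNA gene YNCG0028W. These were the summits just outside the limit of 250 bp, with fold enrichments of 4.83, 5.87, 4.05 and 7.48 (labelled ubc9-6 1 and 2, labelled heat shock 1 and WT untreated 1). The farthest one inside the limit lay 103 bp upstream of its gene, at 1.51-fold.

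Fold enrichment is the number of fragments at the summit over the local background of the input, as a linear ratio. The median over intron-containing genes was 4.94 and 5.80 labelled ubc9-6, 3.72 and 5.25 labelled heat shock, and 7.68 and 11 in WT untreated. Both labelled groups thus lay below both WT untreated lists. The numbers of fragments at the summit behind these medians were 622.5 and 863, 425.5 and 630.5, and 933 and 1406.5, with the groups in the same order. Counting alone leaves an error of 2.67% to 4.85% on a value of that depth, less than the difference between replicates of any group.

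The change of the median of log2 fold enrichment was −0.78 labelled ubc9-6 and −1.06 labelled heat shock, both against WT untreated. With 2 libraries against 2, the exact permutation test cannot go below 0.333, and it gave p = 0.333 for each (two-sided). For intronless tRNA genes the same changes were −0.81 (exact permutation p = 0.333) and −0.43 (exact permutation p = 0.667).

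**Figure D1:**
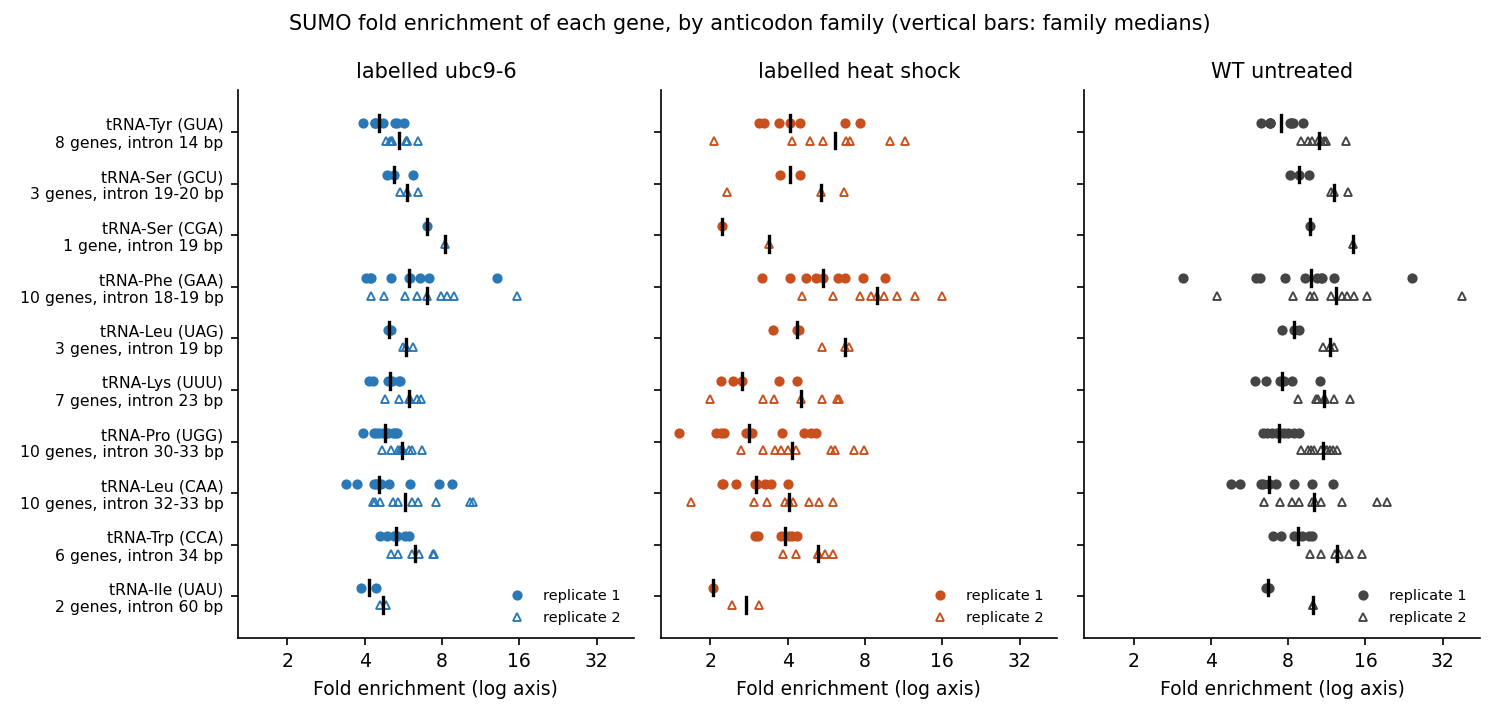
Fold enrichment of every gene (points, log axis) by anticodon family, from the shortest introns at the top to the longest at the bottom, in the lists labelled ubc9-6, those labelled heat shock and WT untreated. Filled circles are replicate 1, open triangles replicate 2 and vertical bars the family median; in WT untreated replicate 2 the family medians stood between 10.03 and 14.3.

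The families differed little in WT untreated. Their medians stood between 6.66 and 9.83 in replicate 1 and between 10.03 and 14.3 in replicate 2. tRNA-Ile (UAU) was the lowest family in all 6 lists, with medians of 4.14 and 4.72 labelled ubc9-6, 2.05 (1 gene) and 2.76 labelled heat shock, and 6.66 and 10.03 in WT untreated. In WT untreated the next family up, tRNA-Leu (CAA), had medians of 6.74 and 10.1, so that the lowest families lay closer together than the replicates did. The top 4 in both WT untreated lists were tRNA-Phe (GAA), tRNA-Ser (CGA), tRNA-Ser (GCU) and tRNA-Trp (CCA), in differing order.

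SUP61, the lone tRNA-Ser (CGA) gene and an essential one, showed the largest change of rank. It had fold enrichments of 7.01 and 8.19 labelled ubc9-6, 2.23 and 3.38 labelled heat shock, and 9.72 and 14.3 in WT untreated. It held rank 1 of the 10 families in both lists labelled ubc9-6 and rank 9 in both labelled heat shock, against ranks 2 and 1 in WT untreated. The numbers of fragments at its summit were 880 and 1276, 254 and 392, and 1143 and 1788, with the groups in the same order.

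The widest range within a family was that of tRNA-Phe (GAA). YNCN0006W (chrXIV:374869-374959, plus strand) had the highest fold enrichment of all 60 genes in every list, with 13.0 and 15.7 labelled ubc9-6, 9.54 and 16 labelled heat shock, and 24.3 and 38.0 in WT untreated. The next gene of its family, YNCP0011C, had 7.11 and 8.90, 7.83 and 12.6, and 12.1 and 16.2. YNCN0006W led in every list, and its lead over YNCP0011C was narrowest labelled heat shock.

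In the other families the highest and the lowest gene, by mean over WT untreated, lay closer together. In WT untreated, SUP53 (YNCC0002W) led tRNA-Leu (CAA) at 12.0 and 19.5. YNCP0017C led tRNA-Lys (UUU) at 10.7 and 13.9, with YNCG0004W the lowest at 5.95 and 8.77. SUP8 led tRNA-Tyr (GUA) at 9.18 and 13.5, with SUP7 (YNCJ0010W) the lowest at 6.28 and 8.98.

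For tRNA-Pro (UGG) the highest gene was YNCN0009W, at 8.86 and 12.4, and the lowest was SUF9 (YNCF0002W), at 6.61 and 8.98. For tRNA-Trp (CCA) they were YNCM0022C, at 9.66 and 15.6, and YNCP0001C, at 7.01 and 9.70. For tRNA-Ser (GCU) they were YNCF0009C, at 9.61 and 13.7, and YNCL0039W, at 8.10 and 11.8. The smaller families were tight: tRNA-Leu (UAG) ran between YNCL0037W, at 7.54 and 10.9, and YNCL0032C, at 8.78 and 12.1, and tRNA-Ile (UAU) between YNCD0017W, at 6.57 and 10.04, and YNCL0033C, at 6.75 and 10.01. The SUP and SUF names come from genetics: mutant copies of these tRNA genes suppress nonsense and frameshift mutations.

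The order of the genes was kept between replicates. Across genes, which are not independent replicates, the rank correlation of fold enrichment between replicates was 0.88 labelled ubc9-6 (58 genes), 0.98 labelled heat shock (52 genes) and 0.94 in WT untreated (59 genes). Between groups it was 0.89 and 0.89 for the lists labelled ubc9-6 with the WT untreated list of the same replicate number, over 58 genes each. For the lists labelled heat shock with WT untreated it was 0.48 (52 genes) and 0.38 (58 genes). The same correlations were not computed for intronless genes, so the lower values are not shown to be particular to intron-containing genes. These correlations are given as descriptions, and the genes of a family share sequence and base composition.

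The comparison of the classes asked whether SUMO at intron-containing tRNA genes stood at the level of the other tRNA genes. The median fold enrichment was 4.94 at intron-containing and 5.15 at intronless genes in replicate 1 labelled ubc9-6, and 5.80 and 6.07 in replicate 2. In the lists labelled heat shock it was 3.72 and 6.04 in replicate 1, and 5.25 and 8.73 in replicate 2. In WT untreated it was 7.68 and 8.36 in replicate 1, and 11 and 11.5 in replicate 2. The intron-containing genes were lower in 6 of 6 lists.

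**Figure D2:**
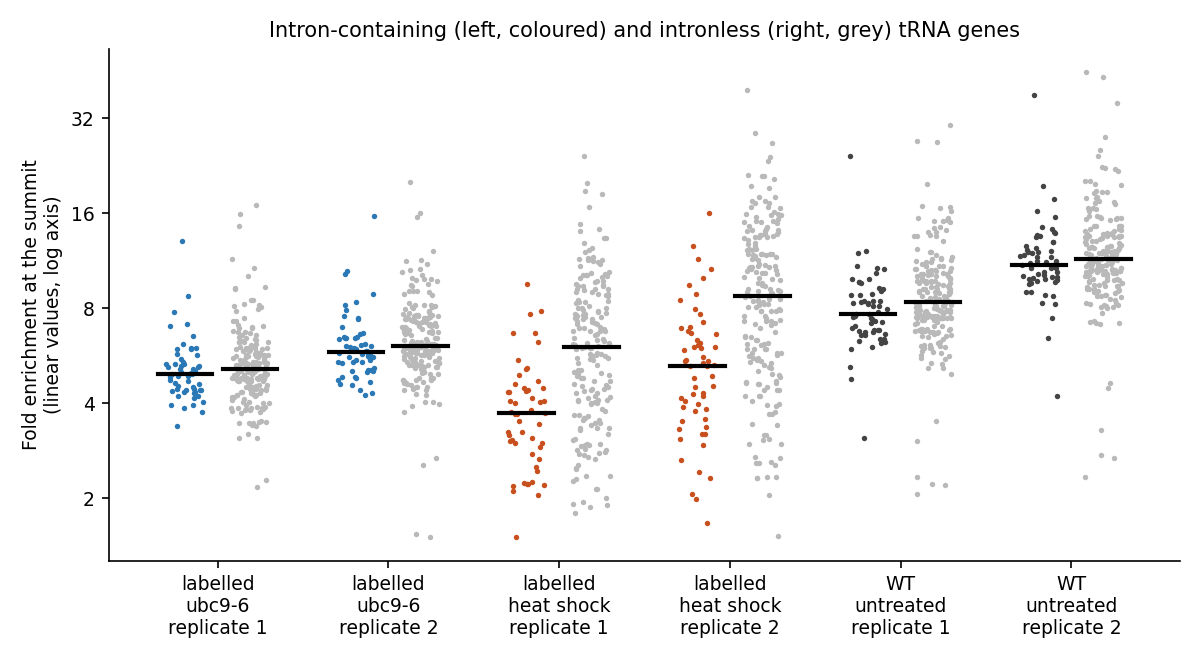
Fold enrichment (log axis) of intron-containing tRNA genes (left, coloured) and intronless tRNA genes (right, grey) in each of the 6 lists, with black bars at the medians. The medians of the classes lie close together in the lists labelled ubc9-6 and in WT untreated, and apart in those labelled heat shock (3.72 and 5.25 at intron-containing genes, 6.04 and 8.73 at intronless genes).

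On the log2 scale the difference of the medians, intron-containing minus intronless, was −0.059 and −0.066 labelled ubc9-6, −0.70 and −0.73 labelled heat shock, and −0.12 and −0.061 in WT untreated. Its mean over the 6 lists was −0.29 ± 0.33 (SD, n = 6; exact sign-flip permutation test, two-sided, p = 0.03125, the smallest that 6 lists allow). Nearly all of it came from the lists labelled heat shock, where the mean was −0.72 ± 0.023 (SD, n = 2), against −0.063 ± 0.0053 labelled ubc9-6 and −0.092 ± 0.043 in WT untreated (SD, n = 2 each). The same genes recur in every list, and each group holds 2 replicates. The sign-flip test thus covers spread between lists, not between genes. The class difference in the lists labelled heat shock minus that in WT untreated was −0.62 (exact permutation p = 0.333, the smallest that 2 against 2 allow). For the lists labelled ubc9-6 it was 0.029 (exact permutation p = 0.667).

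The background behind the fold enrichments was compared between the classes. Labelled ubc9-6, its median was 125 and 144 fragments at intron-containing genes and 125 and 143 at intronless genes. It was the same for both classes in each of the other 4 lists. Except in replicate 2 labelled ubc9-6, these medians stood at the 5th percentile of the background over all peaks of the list. They thus lay at a floor shared by the list, so their equality does not compare the local input of the classes. Within a list, the median intron-containing gene stood at the 59.4th and 62.8th percentile of fold enrichment over all peaks labelled ubc9-6, the 41.9th and 42.2nd labelled heat shock, and the 65.3rd and 69.8th in WT untreated. The median intronless gene stood at the 64.7th and 67.7th, the 65.7th and 66.3rd, and the 70.8th and 72.3rd. The lists differ in length and in their share of tRNA genes, so the percentile gap is not comparable between lists.

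The gap was also present within isotypes, a comparison added after the data were seen. Of the isotypes, 5 have genes of both classes. In the lists labelled heat shock the log2 difference was −1.05 and −1.09 for tRNA-Ile, −0.90 and −1.03 for tRNA-Leu, and −0.81 and −0.67 for tRNA-Lys. For tRNA-Ser it was −0.34 and −0.71. These values rested on 1 and 2 intron-containing tRNA-Ile genes, 11 and 12 tRNA-Leu, 5 and 7 tRNA-Lys and 3 and 4 tRNA-Ser genes. Genes without a peak labelled heat shock are left out, so the gene sets differ in part from those in WT untreated. In WT untreated the same 4 isotypes had differences of −0.13 and −0.011 (tRNA-Ile), −0.30 and −0.20 (tRNA-Leu), 0.0098 and 0.13 (tRNA-Lys), and 0.028 and 0.096 (tRNA-Ser). For tRNA-Pro, with 1 or 2 intronless genes bearing a peak in a list, it was −0.82 and −0.96 labelled heat shock, against −0.63 and −0.77 in WT untreated. In all 5 isotypes both lists labelled heat shock had a larger deficit than both WT untreated lists, by the least for tRNA-Pro.

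Gene by gene, each list was set against the WT untreated list of the same replicate number. The ratio of fold enrichments labelled ubc9-6 over WT untreated had medians of 0.641 and 0.531 over the 58 intron-containing genes, and of 0.610 and 0.541 over 201 and 202 intronless genes. Labelled heat shock over WT untreated, the medians were 0.448 (52 genes) and 0.439 (58 genes) at intron-containing genes, and 0.664 (195 genes) and 0.712 (201 genes) at intronless genes. No intron-containing gene had a ratio above 1 in any of the 4 comparisons, while 38 and 47 intronless genes did in the lists labelled heat shock.

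A limma fit on log2 fold enrichment tested each locus with a peak in all 4 lists concerned. Each library was first centred on the median of the 257 loci with a peak in all 6 lists, of which 52 were intron-containing and 192 intronless tRNA genes, so changes in this fit are relative to tRNA genes at large. For the lists labelled ubc9-6 against WT untreated, 0 of 58 intron-containing genes passed an adjusted p of 0.05 in either direction, beside 0% of all 542 loci lower and 0% higher. At an unadjusted p under 0.05 there were 1 lower and 2 higher intron-containing genes, and 19 lower and 73 higher loci of all. Their centred log2 changes ran between −0.27 (YNCN0006W, limma adjusted p = 0.279) and 0.28 (YNCG0040C, limma adjusted p = 0.264), with a median of 0.011. Without centring all 58 changes were negative, with a median of −0.80 beside −0.77 over all loci, and 0 intron-containing genes and 21 loci of all passed as lower.

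For the lists labelled heat shock against WT untreated, 35 of 52 intron-containing genes fell and 4 rose relative to the centre, beside 40.2% of all 259 loci lower and 38.2% higher. The median centred log2 change was −0.49 at intron-containing genes, 0.15 at 193 intronless genes and −0.031 over all loci. Without centring the median of all loci was −0.72, the split over all loci was 122 lower and 2 higher, and the intron-containing genes were 39 lower and 0 higher. With centring on intronless tRNA genes the split over all loci was 145 lower and 68 higher, and the intron-containing genes were 44 lower and 2 higher. The count of intron-containing genes that fell thus held under each scaling, and the count that rose did not.

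Among the families, all 8 tRNA-Leu (CAA) genes tested and all 6 tRNA-Trp (CCA) genes fell, with median centred log2 changes of −0.79 and −0.50. Of 10 tRNA-Pro (UGG) genes 6 fell and of 5 tRNA-Lys (UUU) genes 4 fell, and none of either family rose. Of 9 tRNA-Phe (GAA) genes 3 fell and 1 rose, and of 7 tRNA-Tyr (GUA) genes 3 fell and 3 rose relative to the centre. The 2 tRNA-Ser (GCU) genes tested, SUP61 and 1 tRNA-Ile (UAU) gene fell, as did 1 of 3 tRNA-Leu (UAG) genes.

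The 5 largest falls were in 4 families. SUP61 fell by 1.42 (SE 0.071, limma adjusted p = 1.05e-07) on the centred log2 scale. YNCO0031W (tRNA-Pro, UGG; chrXV:980683-980787, plus strand) fell by 1.41 (SE 0.082, limma adjusted p = 2.29e-07), with fold enrichments of 1.51 and 2.64 labelled heat shock, against 7.22 and 10.1 in WT untreated. Its summit in replicate 1 labelled heat shock was the one 103 bp upstream. That peak did not pass the stricter limits on q-value, fold enrichment or summit distance, so this gene was not tested under them. The lists labelled ubc9-6 had 4.44 and 5.39 at this gene.

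YNCL0034W (tRNA-Leu, CAA; chrXII:628383-628497, plus strand) fell by 1.35 (SE 0.12, limma adjusted p = 2.56e-06). It had the second-highest WT untreated level of its family, 9.92 and 17.8, with 2.51 and 4.21 labelled heat shock, where SUP53, SUP54 (YNCG0019W) and YNCM0027W stood above it in both lists. YNCP0017C (tRNA-Lys) fell by 1.13 and YNCN0009W (tRNA-Pro) by 1.12. Each of these had been the highest gene of its family in WT untreated, with 2.66 and 4.50 (YNCP0017C) and 2.25 and 3.99 (YNCN0009W) labelled heat shock.

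The 4 genes that rose relative to the centre were SUP4 (YNCJ0027C), SUP8 and SUP7, all tRNA-Tyr, and YNCP0011C (tRNA-Phe). Their centred log2 changes were 0.48 (SE 0.076, limma adjusted p = 0.000189), 0.44 (SE 0.072), 0.26 (SE 0.073) and 0.19 (SE 0.073), but without centring all 4 were negative, at −0.21, −0.25, −0.42 and −0.50. SUP8 had fold enrichments of 7.67 and 11.4 labelled heat shock, against 9.18 and 13.5 in WT untreated. The call of YNCP0011C was lost without replicate 2 labelled heat shock (0.15) and without WT untreated replicate 1 (0.21) or 2 (0.18), and without replicate 1 labelled heat shock 9 genes rose in place of 4. These genes therefore kept more of their WT untreated level than most tRNA genes did, rather than exceeding it.

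Loss labelled heat shock went with intron length. Over intron-containing genes the rank correlation of the ratio to WT untreated with intron length was −0.50 (52 genes) and −0.50 (58 genes) labelled heat shock, and 0.24 and 0.081 (58 genes each) labelled ubc9-6. With the distance between the A and B boxes in place of intron length it was −0.52 and −0.51, and 0.35 and 0.15. Among intronless genes, in which that distance varies with the variable loop, it was −0.21 (190 genes) and −0.19 (196 genes) labelled heat shock. Genes of one family share their intron length and much of their sequence, so these values describe about as many points as there are families.

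**Figure D3:**
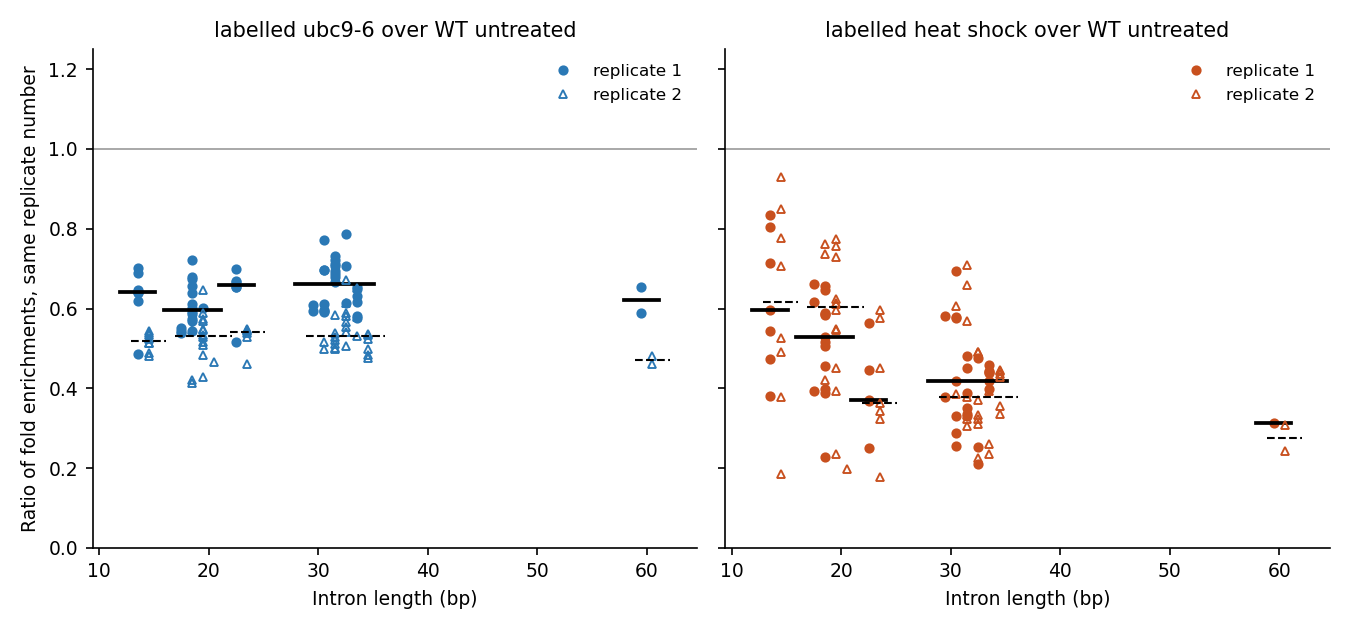
Ratio of fold enrichment to the WT untreated list of the same replicate number (vertical axis) against intron length in bp (horizontal axis), for the lists labelled ubc9-6 (left) and labelled heat shock (right); circles with solid median bars are replicate 1, triangles with dashed bars replicate 2. Medians labelled heat shock were 0.597 and 0.616 at introns of 14 bp and 0.312 and 0.275 at 60 bp, and labelled ubc9-6 they were 0.641 and 0.520 at 14 bp and 0.621 and 0.471 at 60 bp.

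By length class, the median ratio labelled heat shock was 0.597 and 0.616 at introns of 14 bp, 0.528 and 0.604 at 18 to 20 bp, and 0.371 and 0.364 at 23 bp. At 30 to 34 bp it was 0.418 and 0.379, and at 60 bp, with 1 and 2 genes, 0.312 and 0.275. The limma fit called 3 of 7 genes lower with introns of 14 bp, 7 of 15 with 18 or 19 bp, 4 of 5 with 23 bp and 20 of 24 with 30 to 34 bp. The order was not strict, and SUP61, with an intron of 19 bp, had ratios of only 0.229 and 0.236. The ratio ran from 0.184 to 0.931 in replicate 2 among the 14 bp genes alone, so families overlapped widely.

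Genes of identical sequence gave a further view, since they share both boxes and the intron. Of these, 7 sets with 3 or more genes hold 35 of the 60 genes. The highest over the lowest fold enrichment in a set had a median of 1.32 and 1.39 over the sets labelled ubc9-6, 2.07 and 2.75 labelled heat shock, and 1.46 and 1.59 in WT untreated. Genes without a peak could not enter, so the values labelled heat shock leave out the lowest genes. The sets differed in this. In 6 tRNA-Leu (CAA) genes the ratio was 2.58 and 2.43 labelled ubc9-6, 1.79 and 2.05 labelled heat shock, and 2.50 and 3.03 (WT untreated). The values labelled heat shock rest on 5 genes, since YNCG0040C had no peak there. That gene was the lowest of the set in every other list, so these ratios are not comparable between the groups. For tRNA-Trp (CCA) it was 1.30 and 1.46, 1.46 and 1.57, and 1.41 and 1.61, with little difference between the groups. The set of 5 tRNA-Tyr (GUA) genes had 1.44 and 1.33, 2.48 and 2.75, and 1.46 and 1.497, wider labelled heat shock than in the other lists. How reads that fit several positions had been placed is not given in the sources used here, and between identical genes only fragments that reach the flanks can be told apart.

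The widest ratio in replicate 2 labelled heat shock, 4.82, was in the tRNA-Tyr set of 3 genes, and its members SUP4 and SUP3 were singled out after their values were seen. They are identical over all 89 bases of the gene. SUP4 had fold enrichments of 5.34 and 5.82 labelled ubc9-6, 6.70 and 9.98 labelled heat shock, and 8.33 and 10.7 in WT untreated. SUP3 had 5.26 and 5.77 labelled ubc9-6, no peak and 2.07 labelled heat shock, and 8.22 and 11.2 in WT untreated. The pair was close in the 4 other lists and far apart in replicate 2 labelled heat shock. In replicate 1 labelled heat shock, SUP3 had no value to compare. There, the numbers of fragments at the summit in replicate 2 were 1161 at SUP4 and 240 at SUP3.

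**Figure D4:**
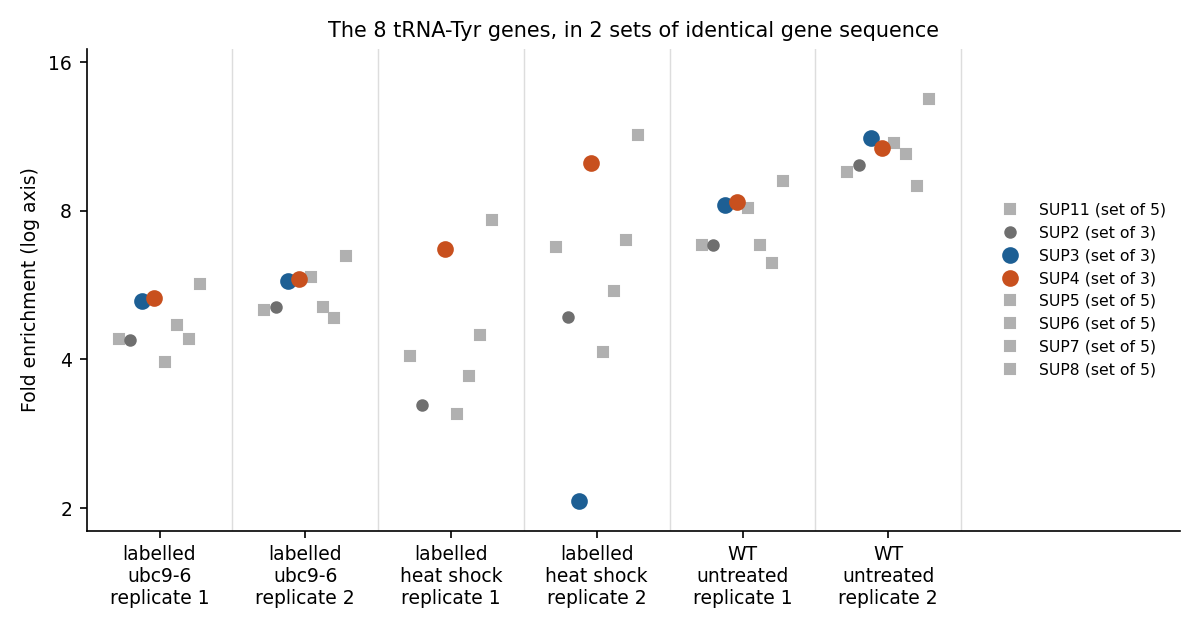
Fold enrichment (log axis) of the 8 tRNA-Tyr genes in each list, with circles for the set of 3 identical genes (SUP4 in orange, SUP3 in blue) and squares for the set of 5. SUP4 and SUP3 lie together in the lists labelled ubc9-6 and in WT untreated, and apart in replicate 2 labelled heat shock (9.98 and 2.07); SUP3 had no peak in replicate 1 labelled heat shock.

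SUP4 and SUP3 lie on different chromosomes, and their flanking sequences differ. Whether this bears on the gap between them was not tested. The 60 bases before each gene are shown from RefSeq R64 in lower case with the first 20 bases of the gene in capitals. SUP4 is at chrX:543025-543104 on the minus strand, and SUP3 at chrXV:288132-288211 on the plus strand. Of the 60 upstream bases, 14 are identical by position.
SUP4: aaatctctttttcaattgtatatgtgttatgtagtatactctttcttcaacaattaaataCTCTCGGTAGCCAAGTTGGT
SUP3: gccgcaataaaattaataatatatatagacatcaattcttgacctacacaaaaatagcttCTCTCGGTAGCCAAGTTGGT

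The summits of both genes lay mostly in the printed upstream bases. Counted from the first base of the gene as 0, they were at 8 and −14 (labelled ubc9-6), −20 and −16 (labelled heat shock) and −13 and −3 (WT untreated) at SUP4. At SUP3 they were at −6 and −14, at −11 in replicate 2 labelled heat shock, and at −11 and −11.

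The same held for the intron-containing genes as a whole. The median summit position was −12 and −13.5 bp labelled ubc9-6, −17.5 and −16 bp labelled heat shock, and −11 and −8.5 bp in WT untreated. These positions are counted from the annotated 5′ end of the gene, and whether the summits lie at TFIIIB was not tested. No summit lay in an intron or a second exon in any of the 6 lists.

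**Figure D5:**
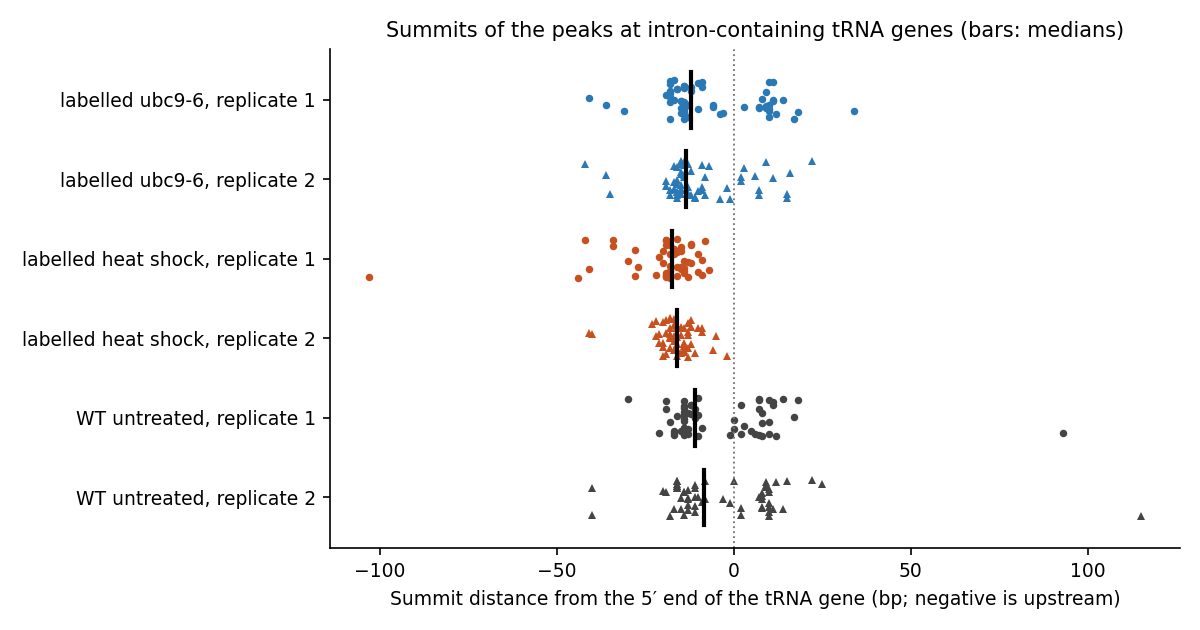
Position of each summit along the gene (horizontal axis, bp from the 5′ end, negative upstream) in each list, with a black bar at the median and a dotted line at the start of the gene. In the lists labelled ubc9-6 and WT untreated the summits form one cloud upstream and another inside the first exon, and all summits labelled heat shock lie upstream.

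The summits fell into an upstream cloud and an inner one. In WT untreated, 33 and 30 lay 24 to 5 bp upstream of the start and 18 and 20 lay 5 to 20 bp inside the gene, where the A box begins, with 6 and 5 within 4 bp of the start. The lists labelled ubc9-6 had 33 and 40 in the upstream range and 18 and 8 in the inner range. Those labelled heat shock had 42 and 55 in the upstream range and 0 and 0 in the inner range. In all, the summits inside the first exon numbered 20 of 58 and 12 of 58 labelled ubc9-6, 0 of 52 and 0 of 58 labelled heat shock, and 23 of 59 and 25 of 60 in WT untreated.

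Replicates placed the summit of a gene a median of 4.5 bp apart labelled ubc9-6, 3 bp labelled heat shock and 4 bp in WT untreated, but some genes changed cloud between replicates. Of 58 genes labelled ubc9-6, 8 had the summit inside in both lists and 16 in one. Of 59 genes in WT untreated, 17 had it inside in both and 13 in one. Per gene, the median shift of the summit labelled heat shock relative to WT untreated was −9.25 bp, and it was farther upstream at 48 of 52 genes. Intronless genes were alike, with a median shift of −8.5 bp and a summit farther upstream at 170 of 193 genes. The difference of the library medians was −7 bp labelled heat shock and −3 bp labelled ubc9-6, each minus WT untreated (exact permutation p = 0.333 for each, the smallest possible).

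Inner summits were unequal among families. In WT untreated they were found at 4 of 6 and 5 of 7 tRNA-Lys (UUU) genes, 5 and 5 of 10 tRNA-Leu (CAA) genes and 2 and 2 of 2 tRNA-Ile (UAU) genes. They were found at 2 and 2 of 10 tRNA-Phe (GAA) genes and at 1 and 2 of 6 tRNA-Trp (CCA) genes. In the lists labelled ubc9-6, tRNA-Trp had 0 and 0 and tRNA-Phe 3 and 0 of 9.

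The summit position from the start of the gene was much the same with and without an intron. Intronless genes had medians of −12 and −13 bp labelled ubc9-6, −16 and −16 bp labelled heat shock and −12 and −8 bp in WT untreated. The mean difference of the medians, intron-containing minus intronless, was −0.25 bp over the 6 lists (exact sign-flip permutation p = 0.625). Inner summits labelled heat shock were also few at intronless genes, at 9 of 196 and 10 of 202, against 61 of 206 and 85 of 204 in WT untreated.

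Measured from the B box, the classes parted. The median summit position relative to the B box was −91 and −93 bp at intron-containing and −68 and −69 bp at intronless genes labelled ubc9-6. Labelled heat shock it was −99.5 and −98 bp at intron-containing and −72 and −72 bp at intronless genes. In WT untreated it was −89 and −88.5 bp at intron-containing and −68 and −64 bp at intronless genes. The mean difference was −24.3 bp (intron-containing minus intronless, negative meaning farther upstream), and no test is given for it. With summits at like distances from the 5′ end, it follows from the longer span between the boxes, a median of 73 bp in intron-containing and 45 bp in intronless genes. Over all lists, the median position from the B box was −86 bp at introns of 14 bp, −91 bp at 23 bp, −111 bp at 32 bp and −111 bp at 60 bp. From the 5′ end it was −14, −12, −14 and 5 bp at the same lengths. The lone gene with an intron of 20 bp had medians of −73 bp from the B box and 10 bp from the 5′ end. At 34 bp they were −99 and −10 bp, so neither series followed intron length strictly. At 60 bp the summits labelled heat shock were all upstream of the gene.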

How the data were processed

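The 6 SUMO immunoprecipitates of the 12 samples each have a deposited peak list, and the 6 inputs entered only through peak calling. Per the submitters' processing notes and the study's methods, the authors used Bowtie2 2.3.5 for alignment to sacCer3 and MACS2 2.1.1.20160309 for peaks, called per immunoprecipitate with its matched input as control; the q-value limit was 0.05 and replicates stayed separate. DiffBind 2.10.0 is also named, and its output was not used here. The deposited lists hold positions, the summit's fold enrichment (a linear ratio, pseudocount 1), a p-value and a q-value of each peak on the −log10 scale, and a display score that was not used. The lists do not state depth. The number of fragments at a summit was recovered from the fold enrichment and the p-value, and 3451 of 3486 peaks (99.0%) gave a number within 0.05 of a whole one. Counting errors cover counting only.

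Genes, exons and sequences came from RefSeq R64, the same build. Intron-containing means 2 annotated exons, and the family is the isotype with the anticodon read before the intron. Fold enrichments were compared as medians of log2 values per list, by exact permutation over libraries (two-sided). Single loci (tRNA genes, and merged overlapping peaks elsewhere) were fitted with limma 3.58.1 in R 4.3.3 on centred log2 fold enrichment, over all 6 lists, with Benjamini-Hochberg adjustment over all loci tested and a threshold of 0.05. A locus without a peak has no value, and it was left out rather than set to 0. Same-numbered replicates were not taken as pairs: after centring, the deviations of same-numbered libraries correlated at 0.17, 0.034 and 0.17 over 257 loci. Centring takes out a shift common to a library. Before it, the median of intron-containing genes was higher in replicate 2 than in replicate 1 of every group. The fit without centring keeps that shift in its spread, as do the unpaired permutation tests of the change of the median. Genes named are the highest and lowest of each family in WT untreated, all those without a peak in some list, and up to 5 per direction with the largest change among the called ones; SUP3 falls under the second part, and its pairing with SUP4 was chosen after their values were seen, as were SUP54 and YNCM0027W. Python 3.11.15 and scipy 1.17.1 were used, and the functions were tested on simulated data. The members and lists were chosen with earlier results of these data known.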

Additional observations from a re-analysis of the deposited data

How the results depend on the processing

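The counts of genes with a peak in both lists, the changes of the median, the summit positions and the count of genes that fell in the lists labelled heat shock kept their direction, and the counts stayed within 1.5 times, under each alternative tried. These were a −log10 q-value of 10 or more, a fold enrichment of 2 or more, a summit within 100 bp, the nearest intron-containing gene, the nearest summit, other centrings, the 4 lists compared alone, and each library left out. The class difference over the lists ran from −0.34 to −0.20 with 1 list left out, where 5 lists cannot give an exact p below 0.0625. Within isotypes, an alternative chosen after seeing the data, it was −0.12 labelled ubc9-6, −0.84 labelled heat shock and −0.18 in WT untreated. Without tRNA-Phe, tRNA-Trp and tRNA-Tyr, chosen likewise, it was −0.087 labelled ubc9-6 and −1.03 labelled heat shock.

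In the limma fit of the lists labelled heat shock, the genes that rose numbered 0 without centring and 2 with centring on intronless tRNA genes, against 4, and 2 loci of all rose without centring. Leaving out 1 library gave 3 to 9, with 9 when replicate 1 labelled heat shock was left out. Without centring the log2 changes of SUP4 (YNCJ0027C), SUP8 (YNCM0037W), SUP7 (YNCJ0010W) and YNCP0011C were −0.21, −0.25, −0.42 and −0.50. With centring on intronless genes those of SUP7 and YNCP0011C were −0.0073 and −0.082. For the lists labelled ubc9-6, all loci gave 21 lower without centring and 13 higher with the 4 lists alone; with 1 library left out, 0 to 26 were lower and 0 to 116 higher, the most without WT untreated replicate 2, where 1 intron-containing gene was called higher (0 to 1 over the libraries). With the replicate number as a block, 1 locus was lower and 27 were higher, none an intron-containing tRNA gene, and for the lists labelled heat shock the block gave 35 intron-containing genes lower and 5 higher. The causes were not tested. The lists hold called peaks only, so a gene without a peak has no upper limit here.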
